A study of Mus musculus with 2 samples.

Results

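The cells described here are vascular smooth muscle cells of the mouse cochlea, the contractile cells that wrap small arteries and arterioles. They were chosen by gene counts from 2 droplet libraries: a barcode needed at least 2 unique molecular identifiers (UMIs, 1 per captured RNA molecule) of Acta2, a UMI of at least 2 of Myh11, Pln, Cnn1, Mustn1 and Rrad, and none of the endothelial genes Cdh5 and Pecam1. Of 20133 barcodes in the drug library, 646 met the rule, and of 17423 in the noise-only library, 450 did, which made 1096 members of 37556 barcodes in all. The tissue was the sensory epithelium of the cochlea of wild-type C57BL/6J mice aged 4 to 6 weeks. Every ear had been exposed for 2 hours to an octave band of noise (8 to 16 kHz, 105 dB) and was taken 2 days afterwards. The drug library pooled 5 ears that had received a drug at 90 mg/ml ahead of the noise, and the noise-only library pooled the 5 opposite ears of those mice, which had no drug. The series title shortens the drug's name to VPA, the labels do not spell it out, and nothing used here states its route, so whether any of it reached the opposite ears is not known. Each group is 1 library, the ears within it cannot be told apart, and no ear without noise was analysed here, so the values below describe these libraries and carry no test of the drug.

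Smooth muscle cells contract when calcium activates myosin light chain kinase, which phosphorylates the myosin light chain and lets myosin pull on smooth muscle actin. In the cochlea they line the spiral modiolar artery and its arteriolar branches and set the blood flow to the lateral wall and the spiral lamina, while pericytes sit further along, on the capillaries. The genes of the contractile apparatus are switched on by serum response factor with its partner myocardin, which bind a short DNA motif called the CArG box.

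The promoters of contractile genes are shown because that motif can be read in them directly. The motif searched was CC, then 6 letters each A or T, then GG, which reads alike in form on both strands. In the RefSeq promoter windows of build GRCm38.p6, each 250 bases before to 50 after a gene's start, 28 of the 34 contractile genes, Acta2 and Cnn1 of the rule among them, had an entry. Of their 34 promoters, 5 held the motif (14.7%, exact 95% interval 4.953 to 31.1%), against 535 of all 32851 promoters in the table (1.63%, 1.49 to 1.77%) and 110 of the 6377 promoters of genes measured in the members (1.72%). In the list of immediate early genes 5 of 31 promoters held it as well (16.1%, 5.45 to 33.7%), and these belonged to 2 genes. The 5 contractile promoters belong to Myl9, Myl6, Vcl, Myom1 and Filip1l. The promoters of Myl9, the regulatory light chain of smooth muscle myosin (chr2:156775214-156775513, plus strand), and of Myl6, its essential light chain (chr10:128492960-128493259, minus strand), read as follows, with the CArG box in capitals.
Myl9: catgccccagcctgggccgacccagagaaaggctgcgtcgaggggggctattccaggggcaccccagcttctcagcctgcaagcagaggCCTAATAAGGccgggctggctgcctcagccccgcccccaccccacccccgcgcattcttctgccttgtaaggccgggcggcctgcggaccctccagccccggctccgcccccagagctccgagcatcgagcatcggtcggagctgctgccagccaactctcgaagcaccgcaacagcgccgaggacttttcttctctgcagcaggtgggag
Myl6: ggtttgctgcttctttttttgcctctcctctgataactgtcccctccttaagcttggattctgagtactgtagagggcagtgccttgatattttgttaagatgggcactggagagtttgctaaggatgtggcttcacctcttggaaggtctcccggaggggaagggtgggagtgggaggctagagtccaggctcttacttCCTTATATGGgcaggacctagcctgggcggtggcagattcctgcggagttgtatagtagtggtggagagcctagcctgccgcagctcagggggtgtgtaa
The box began at position -161 from the start in Myl9 and at -50 in Myl6. A match is a string of letters and not a shown binding site, and its absence from other windows, that of Acta2 among them, says only that these exact letters are not there.

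Smooth muscle genes that the rule did not use were high in the members of both libraries. The level used throughout is the UMIs of a gene summed over the members of a library, per 1000000 of their summed UMIs (CPM). The rule genes were high by selection: Acta2, smooth muscle actin, stood at 10217 CPM in drug members and 11045 CPM in noise-only members, and Myh11, smooth muscle myosin heavy chain, at 2920.3 CPM in drug members and 3147 CPM in noise-only members. Of the 9 smooth muscle markers outside the rule, Tagln (transgelin, an actin-bundling protein) reached 7889.6 CPM in drug members and 8786.8 CPM in noise-only members, against 161.0 and 99.4 CPM in a pericyte set of the same libraries. Tpm2, a tropomyosin, stood at 4043.1 CPM in drug members and 4425.0 CPM in noise-only members, against 336.7 and 322.1 CPM in the pericyte set. Lmod1, the smooth muscle leiomodin, stood at 385.0 and 459.7 CPM, against 40.5 and 15.7 CPM in the pericyte set. A Tagln UMI was found in 98.8% of drug members and 97.6% of noise-only members, at median depths of 1548 and 1837.5 UMIs. Among macrophages, which should lack the gene, it was found in 5.07% of the drug set and 5.84% of the noise-only set, at median depths of 1680.5 and 2065 UMIs. Some of those cells were members too, and without them the shares were 4.30% of 977 drug and 4.06% of 788 noise-only macrophages. Genes that took no part in the choice thus went with the label of smooth muscle.

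**Figure D1:**
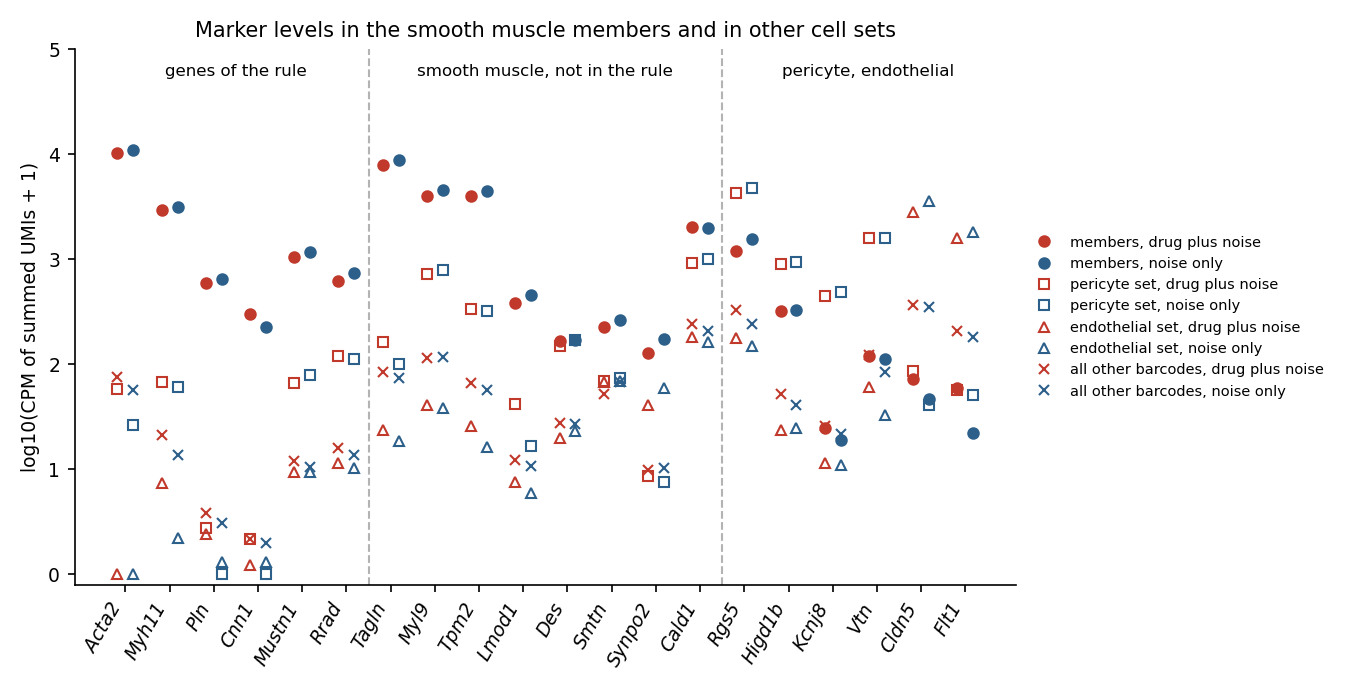
Level of each marker gene, as log10 of CPM plus 1 of summed UMIs, in the smooth muscle members, in pericyte and endothelial sets and in all other barcodes of the drug and the noise-only library. Tagln, Myl9, Tpm2 and Lmod1 are highest in the members of both libraries, and Vtn, which helped to choose the pericyte sets, is highest in them.

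Other muscle types were not seen in number. The 5 skeletal muscle markers had 5 UMIs over all drug members and 0 over all noise-only members, and the 3 cardiac markers had 3 and 1. The 4 markers of myoepithelial cells, the contractile cells of glands, had 74 UMIs in drug members and 2 in noise-only members. Oxtr, the oxytocin receptor, was at 0 in both libraries, and so was Myh6, the atrial myosin. Leaving out members with a UMI of Krt5, Krt14, Ckm or Acta1 left 636 drug and 448 noise-only members.

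About 1 in 3 members also carried genes of a second cell type, in near-equal shares in both libraries. Panels of genes for 10 other cell types, pericytes not among them, were drawn up after the data had been seen. A member was marked when at least 3 genes of a panel had a UMI. At least 1 panel marked 206 of 646 drug members (31.9%, 28.3 to 35.6%) and 144 of 450 noise-only members (32.0%, 27.7 to 36.5%). The Schwann cell panel marked most, with 97 drug and 79 noise-only members, while the neuron panel marked 24 and 6, the endothelial panel 25 and 12, and the red cell panel 32 and 18. Marked members were deeper, with a median of 2385.5 UMIs against 1395.5 in other drug members, and 2723.5 against 1653.5 in other noise-only members. Members without any panel numbered 440 in the drug library and 306 in the noise-only library and held 644515 of 1343029 UMIs and 525590 of 1044068 UMIs. The doublet caller Scrublet marked 131 drug members (20.3%) and 65 noise-only members (14.4%), of which 108 and 56 were also marked by a panel. Its score threshold was 0.164 in the drug library and 0.264 in the noise-only library, so these shares are not on one scale. Barcodes holding more than 1 cell and RNA shared between cells cannot be told apart here, so many of the genes below, those furthest apart between the libraries among them, are given also for the members without a second type.

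Genes of other cell types also differed between the libraries within the members. Ttr, the transthyretin gene, had a UMI in 1.24% of drug members and 24.9% of noise-only members, and in 1.22% of drug macrophages and 24.7% of noise-only macrophages. S100a8, a neutrophil gene, had one in 4.80% of drug members and 0.667% of noise-only members. The 5 macrophage markers summed to 172.0 CPM in drug members and 398.4 CPM in noise-only members, and the 4 endothelial markers outside the rule to 223.4 and 145.6 CPM. None of these 9 markers was at 0 in either library. The set of macrophages itself held 9 drug and 17 noise-only members. Their part in the results below was not tested beyond the values without a second type. Of the barcode sequences deposited, 111 occurred in both libraries, 3 of them among drug members and 0 among noise-only members.

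Smooth muscle members made up 3.21% of the drug library (2.97 to 3.46%) and 2.58% of the noise-only library (2.35 to 2.83%), a ratio of 1.24 (exact 95% interval 1.10 to 1.404, counting error only). Set against vessel cells alone, the ratio lay on the other side of 1. Of the members, pericytes and endothelial cells together, members were 16.4% in the drug library and 18.3% in the noise-only library, a ratio of 0.895 (0.792 to 1.01). The pericyte set held 1186 drug and 717 noise-only barcodes, and the endothelial set 2122 and 1296. Without members of a second type the share of the library was 2.19% and 1.76%, a ratio of 1.24 (1.07 to 1.44). Among barcodes with at least 1000 UMIs the ratio was 1.11 (0.973 to 1.26). For members with at least 5 Acta2 UMIs and 3 partner genes it was 1.16 (0.999 to 1.34). Both intervals include 1. With 1 dissection pool per group, the spread of these shares between ears is unknown.

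Acta2 counts per member covered a wide range, and other genes differed along it. The median was 16 Acta2 UMIs in drug members, with a highest value of 151, and 21.5 in noise-only members, with a highest value of 133. Members with 30 or more Acta2 UMIs were 136 of 646 in the drug library (21.1%) and 158 of 450 in the noise-only library (35.1%), which was also the deeper one per member. Rgs5, a regulator of G protein signalling that is abundant in pericytes, stood at 3645.9, 2036.3, 650.1 and 196.0 CPM in drug members with 2 to 4, 5 to 14, 15 to 29 and 30 or more Acta2 UMIs. In noise-only members of the same 4 tiers it stood at 4740.2, 3119.8, 1464.7 and 278.2 CPM. Tagln ran the other way, at 2068.4 CPM in the lowest tier and 14574 CPM in the highest of drug members, and at 1610.9 and 13942 CPM in those of noise-only members. Kcnj8, a potassium channel subunit of pericytes, stood at 83.6 CPM in the lowest and 6.03 CPM in the highest drug tier, and at 92.6 and 4.84 CPM in the noise-only ones. These Kcnj8 levels rest on few UMIs. The members therefore ranged, in both libraries, between barcodes rich in contractile genes and barcodes with a high level of pericyte genes. The tiers were cut on a gene of the rule, so these values are a description.

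**Figure D2:**
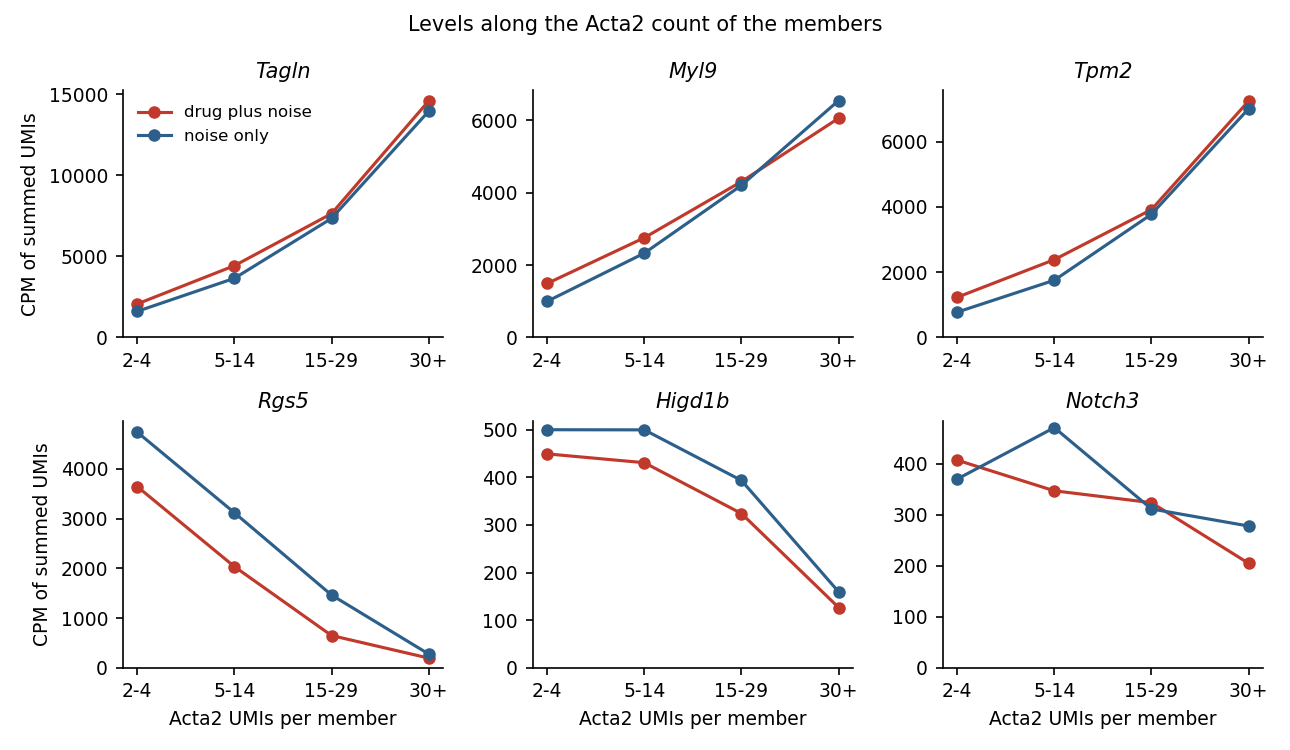
Level in CPM of summed UMIs of 6 genes in members grouped by their Acta2 count (2 to 4, 5 to 14, 15 to 29, 30 or more UMIs), for the drug and the noise-only library. Tagln is higher and Rgs5 lower at each further step in both libraries, with noise-only Rgs5 above drug Rgs5 in all 4 tiers.

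Values just inside and just outside the threshold rest on few barcodes. The 30 drug and 19 noise-only members with 2 or 3 Acta2 UMIs had Tagln at 2024.0 and 993.9 CPM and Rgs5 at 3385.6 and 3549.5 CPM. Just outside, 15 drug and 9 noise-only barcodes with 1 Acta2 UMI and enough partner genes had Tagln at 1450.5 and 446.5 CPM and Rgs5 at 4527.5 and 9028.7 CPM. A further 146 drug and 93 noise-only barcodes failed for having 1 partner gene, with Tagln at 2698.4 and 1770.9 CPM. Another 35 drug and 26 noise-only barcodes failed for a UMI of Cdh5 or Pecam1, at median depths of 3813 and 4267 UMIs.

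Several genes outside the rule stood far higher in the members than in all other barcodes. Fbxl22, an F-box protein of muscle, stood at 189.1 CPM in drug members and 244.2 CPM in noise-only members, against 1.62 and 1.58 CPM in all other barcodes. Myocd, which encodes myocardin, stood at 55.8 and 54.6 CPM in drug and noise-only members, against 0.495 and 0.368 CPM in all other barcodes. Npy1r, a receptor for neuropeptide Y released by sympathetic nerves, stood at 146.7 and 165.7 CPM, against 3.85 and 2.15 CPM elsewhere. Kcnmb1, the smooth muscle subunit of the large-conductance calcium-activated potassium channel, stood at 67.8 and 56.5 CPM, against 1.65 and 0.961 CPM. Kcna5, a voltage-gated potassium channel, stood at 34.3 and 49.8 CPM, against 0.440 and 0.650 CPM, and Ntf3, the gene of neurotrophin-3, at 46.9 and 50.8 CPM, against 1.16 and 1.07 CPM. The members' levels of these 6 genes differed by less than 1.5-fold between the libraries. Pericytes had Kcnmb1 at 14.1 CPM in the drug library and 11.6 CPM in the noise-only library, a smaller contrast than with all other barcodes. Against the pericyte set the members were low in Vtn, vitronectin, at 119.9 CPM in drug members and 112.1 CPM in noise-only members, where pericytes had 1607 and 1611 CPM. That contrast is partly by selection, since Vtn, Rgs5, Kcnj8, Abcc9, Higd1b and Ndufa4l2 chose the pericyte set. Ifitm1, an interferon-induced membrane protein outside that choice, stood at 137.0 CPM in drug members and 93.9 CPM in noise-only members, where pericytes had 1005 and 1109.6 CPM.

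Between drug and noise-only members, 6160 genes with at least 50 UMIs over both sums were compared. A gene is called higher at a ratio of drug to noise-only CPM of at least 1.5 and lower at a ratio of at most 0.667, as a description of size and not a test. Of all measured genes, 386 (6.27%) were higher and 216 (3.51%) were lower, and the median log2 ratio was -0.00070. The counts of higher and lower genes in each list below are to be read beside these shares. Over the 3383 genes measured in members without a second type, 139 (4.11%) were higher and 144 (4.26%) were lower. Of the 386 and 216 genes a part is set by counting alone, and 801 of the 6160 genes had a counting interval that did not include 1. These 801 are not split by direction here, and intervals are narrower for genes with more UMIs. Counts of intervals above or below 1 in the lists below therefore have no matching share of all genes.

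The contractile apparatus differed little. None of the 30 measured genes of the contractile list was higher or lower, against 6.27% higher and 3.51% lower of all measured genes. Their median log2 ratio was -0.04 (-0.02 without a second type). Of the 30, 8 had a counting interval below 1 and 1 had an interval above 1. Tagln stood at 7889.6 CPM in drug members and 8786.8 CPM in noise-only members, a ratio of 0.898 (0.873 to 0.923). Myl9 was at 4029.0 and 4526.5 CPM, a ratio of 0.890 (0.856 to 0.926), and Myl6 at 5694 and 6406 CPM, a ratio of 0.889 (0.860 to 0.919). The light chain genes whose promoters are printed above thus had ratios just below 1, close to that of Tagln. Actb, the cytoplasmic actin, had a ratio of 0.966 (0.932 to 1.0008). Of 19 genes for myosin light chain phosphorylation none was higher or lower, with a median of -0.07. Mylk, the kinase itself, stood at 1063 CPM in drug members and 1364 CPM in noise-only members, a ratio of 0.780 (0.724 to 0.840), and 0.839 (0.766 to 0.918) without a second type. Ppp1r14a, an inhibitor of the opposing phosphatase, had a ratio of 0.971 (0.886 to 1.06).

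Calcium handling, ion channels and receptors also stayed mostly inside the 1.5-fold limits. Of 20 calcium handling genes none was higher or lower, with a median of -0.14. Pln, phospholamban, which restrains the calcium pump of the sarcoplasmic reticulum and belongs to the rule, stood at 597.9 CPM in drug members and 655.1 CPM in noise-only members. Atp2a2, that pump, stood at 606.1 and 643.6 CPM, a ratio of 0.942 (0.849 to 1.04). Among 19 potassium and chloride channel and connexin genes 1 was higher, Clcn3, a chloride-proton exchanger, at 70.0 CPM in drug members and 32.6 CPM in noise-only members. Its ratio was 2.15 (1.44 to 3.28) over all members and 1.32 (0.629 to 2.86) without a second type. Gja4, the gene of connexin 37 of arterial walls, had a ratio of 0.882 (0.734 to 1.06). Of 22 vasoactive receptor and signalling genes 2 were higher and 1 lower, with a median of -0.08. The higher ones were Rgs2, at 44.7 CPM in drug members and 22.99 CPM in noise-only members, and Ramp2, at 32.8 and 16.3 CPM. Ramp2, a receptor partner for adrenomedullin, is itself an endothelial panel gene, and 4 drug and 6 noise-only UMIs were left without a second type. Rgs5 stood at 1209 CPM in drug members and 1554 CPM in noise-only members, a ratio of 0.778 (0.726 to 0.834) over all members and 0.780 (0.718 to 0.849) without a second type. No panel was for pericytes, so members with pericyte genes stayed among those without a second type. Of these, 43.0% of drug and 40.5% of noise-only members had an Rgs5 UMI. Gucy1a1, a subunit of the nitric oxide receptor guanylate cyclase, had a ratio of 0.793 (0.707 to 0.891). Ednra, the endothelin A receptor, stood at 124.3 CPM in drug members and 129.3 CPM in noise-only members, a ratio of 0.962 (0.762 to 1.22).

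Notch signalling from the endothelium maintains arterial smooth muscle, and Notch3 is its main receptor there. None of the 9 measured Notch pathway genes was higher or lower, with a median of -0.11. Notch3 stood at 308.3 CPM in drug members and 339.1 CPM in noise-only members, and Heyl, one of its target genes, at 97.54 and 121.6 CPM. Of 24 smooth muscle transcription factors and cofactors 1 was higher, with a median of -0.08. That one was Fhl1, a LIM-domain protein of muscle, at 102.8 CPM in drug members and 50.8 CPM in noise-only members. Its ratio was 2.02 (1.46 to 2.83) over all members and 2.24 (1.44 to 3.59) without a second type. In members outside a small group described below, the Fhl1 ratio was 1.57 (0.991 to 2.53), and 1.14 (0.601 to 2.18) without a second type. Both of these intervals include 1. Myocd had a ratio of 1.02 (0.715 to 1.47). Klf2, a factor that answers to shear stress in endothelium, stood at 953.1 CPM in drug members and 1247 CPM in noise-only members, a ratio of 0.764 (0.707 to 0.826), and 0.760 (0.687 to 0.840) without a second type.

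Among the genes named by the rule, which ranks genes by the bound of the counting interval nearer to 1, the first was Ccn2, which encodes a matricellular growth factor cofactor also known as connective tissue growth factor. It stood at 346.2 CPM in drug members (465 UMIs) and 77.6 CPM in noise-only members (81 UMIs), a ratio of 4.46 (3.52 to 5.72). Without a second type the ratio was 4.91 (3.62 to 6.79). It had a UMI in 16.4% of drug members and 10% of noise-only members, and at least 3 UMIs in 44 drug members (6.81%, 4.99 to 9.04%) and 8 noise-only members (1.78%, 0.771 to 3.47%). In the pericyte set Ccn2 ran the other way, at 38.2 CPM in the drug library and 67.1 CPM in the noise-only library, a ratio of 0.569 (0.404 to 0.799). In all barcodes other than the members the ratio was 0.994 (0.929 to 1.06). The difference between these ratios could not be tested with 1 library per group. The intervals cover counting error only, and many of the drug UMIs lay in few cells. In the drug library 34 members with at least 5 Ccn2 UMIs held 356 of the 465. In the noise-only library 3 such members held 19 of the 81. That the members' interval did not meet those of the other sets therefore does not show that the sets differ.

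**Figure D3:**
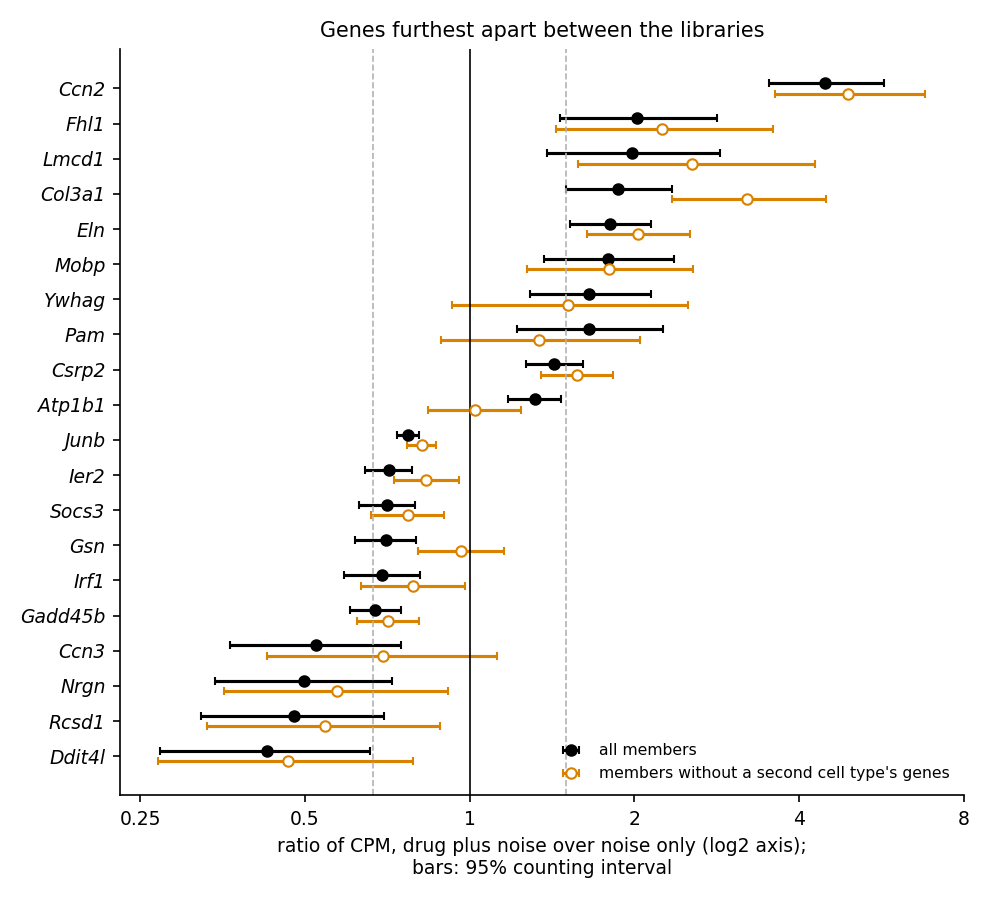
Ratio of drug to noise-only CPM on a log2 axis for the genes furthest apart by the naming rule, with 95% counting intervals, for all members and for members without a second cell type's genes. Ccn2 lies furthest to the right, at 4.46 over all members, and Ddit4l furthest to the left, at 0.426.

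A small group of members held 297 of the 465 Ccn2 UMIs of the drug library and 22 of the 81 of the noise-only library. After the values had been seen, members were marked that had a UMI of at least 3 of Actg2, Npnt, Col8a1, Ptgis, Itga9 and P2rx1, genes that tended to occur in the same members. Actg2 is the actin of visceral smooth muscle, Npnt a basement membrane ligand of integrins, Ptgis the prostacyclin synthase and P2rx1 a receptor for ATP from sympathetic nerves. The group had 51 of 646 drug members (7.89%, 5.93 to 10.2%) and 33 of 450 noise-only members (7.33%, 5.10 to 10.1%), a ratio of shares of 1.08 (0.681 to 1.72). Its Acta2 count was high, with a median of 67 UMIs in the drug group and 47 in the noise-only group, against 15 and 20 in other members. Pericyte-related genes were low in it: Rgs5 stood at 260.9 CPM in the drug group and 15.0 CPM in the noise-only group, against 1321 and 1781 CPM in other members. Notch3 stood at 70.5 and 97.2 CPM in the group, against 336.3 and 374.6 CPM in other drug and noise-only members. A second type's panel marked 14 of the 51 drug and 18 of the 33 noise-only members of the group. Without these, the group was 37 of 646 drug members (5.73%, 4.06 to 7.81%) and 15 of 450 noise-only members (3.33%, 1.88 to 5.44%). The shares were thus less alike there than over the whole group. Because 5 ears were pooled, it cannot be told how many ears the group came from. The 6 genes that marked the group summed to 2827.7 CPM in its drug cells and 1899.9 CPM in its noise-only cells. Its 51 drug cells held 141811 UMIs and its 33 noise-only cells 133689. The drug and noise-only cells were thus not alike in these genes or in depth. What part this has in the ratios below was not tested.

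Within that group several genes, of matrix and of other roles, stood higher in the drug library. Ccn2 stood at 2094 CPM in the drug group and 164.6 CPM in the noise-only group, a ratio of 12.7 (8.25 to 20.6), and 43 of 51 drug cells but 10 of 33 noise-only cells had a UMI. Without a second type, in 37 drug and 15 noise-only cells, the ratio was 7.14 (4.16 to 13.3). In the other members Ccn2 was at 139.9 CPM in the drug library and 64.8 CPM in the noise-only library, a ratio of 2.16 (1.60 to 2.95). Eln, the gene of elastin, stood at 1459.7 CPM in the drug group and 456.3 CPM in the noise-only group, a ratio of 3.199 (2.39 to 4.33), and 2.67 (1.704 to 4.37) without a second type, against 1.39 (1.12 to 1.73) in other members. Csrp2, a LIM protein of smooth muscle, stood at 2038 and 598.4 CPM in the group, a ratio of 3.41 (2.65 to 4.42), and 4.66 (2.99 to 7.59) without a second type, against 1.08 (0.935 to 1.24) in other members. Lmcd1, a LIM-domain transcription cofactor, had ratios of 5.97 (2.93 to 13.7) in the group and 1.19 (0.766 to 1.87) outside it, and 41 drug but 1 noise-only UMI in the group without a second type. Tnfrsf12a, the receptor for the cytokine TWEAK, stood at 387.8 and 67.3 CPM in the group, a ratio of 5.76 (2.82 to 13.3), against 0.853 (0.585 to 1.24) in other members, and 42 and 2 UMIs were left in the group without a second type. Postn, periostin, a secreted matrix protein, had 25 UMIs in the drug group and 3 in the noise-only group, and 22 and 2 without a second type.

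Not every gene of the group followed. Ccn3, a relative of Ccn2, stood at 268.0 CPM in the drug group and 456.3 CPM in the noise-only group, a ratio of 0.587 (0.381 to 0.895), and 0.450 (0.247 to 0.816) without a second type. Myh11 stood at 3646 and 3762 CPM, a ratio of 0.969 (0.855 to 1.10), and 0.702 (0.597 to 0.827) without a second type. Fn1, fibronectin, stood at 225.7 and 239.4 CPM, and its ratio without a second type was 0.513 (0.260 to 1.02). Thbs1, thrombospondin, had a ratio of 0.854 (0.499 to 1.46) in the group and 2.24 (0.834 to 7.55) without a second type, and Tgfb1i1, a cofactor of actin-linked adhesions, of 0.873 (0.486 to 1.56) and 0.853 (0.334 to 2.35). Acta2, in contrast, was higher in the drug group, at 24258 CPM against 13195 CPM in the noise-only group. Its ratio was 1.84 (1.74 to 1.95), and 1.72 (1.59 to 1.87) without a second type. In other members Acta2 stood at 8559.7 CPM in the drug library and 10729.6 CPM in the noise-only library, a ratio of 0.798 (0.776 to 0.820). The genes of this paragraph and the one before it were picked after their values had been seen, and the group rests on 84 cells of 2 libraries.

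**Figure D4:**
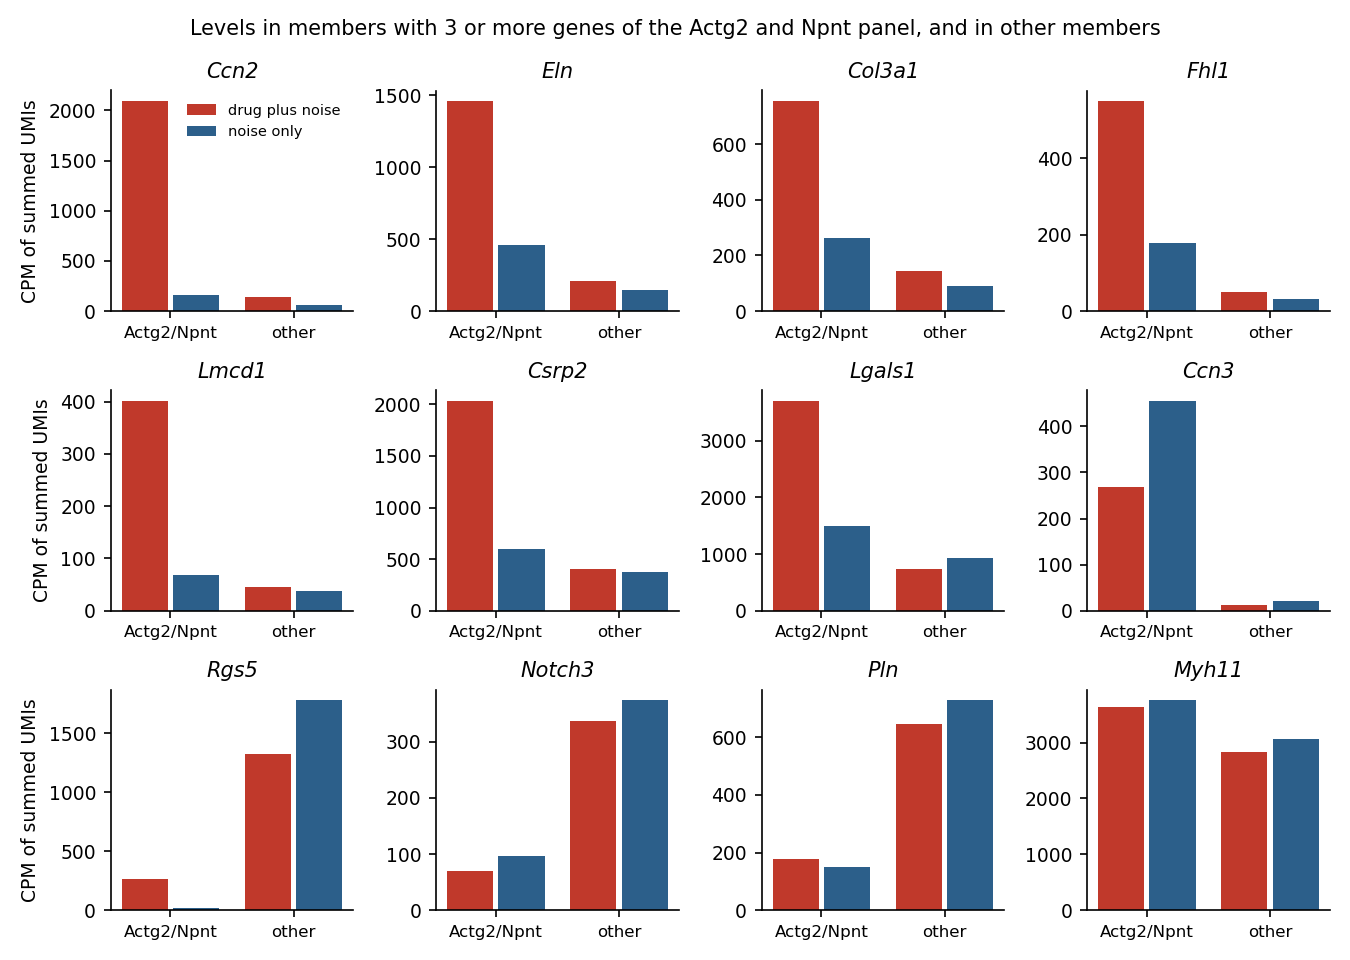
Level in CPM of summed UMIs of selected genes in members with at least 3 genes of the Actg2 and Npnt panel (51 drug, 33 noise-only) and in other members (595 drug, 417 noise-only), drug bars left of noise-only bars, without replicates. In the Ccn2 panel the drug bar of the group stands far above the rest, at 2094 CPM against 164.6 CPM in the noise-only group, while the Myh11 bars of the group differ little over all its cells.

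Over all members the matrix genes were split, and the values of several collagens turned on a single cell. Over all members Eln stood at 338.8 CPM in the drug library and 187.7 CPM in the noise-only library, a ratio of 1.80 (1.52 to 2.14), and 2.03 (1.64 to 2.53) without a second type. Col3a1, a fibrillar collagen, stood at 207.7 and 111.1 CPM, a ratio of 1.87 (1.5005 to 2.34), and 3.21 (2.35 to 4.48) without a second type. Col1a1 stood at 86.4 CPM in drug members and 348.6 CPM in noise-only members, a ratio of 0.248, but 1 noise-only cell held 76.9% of the noise-only UMIs. Without a second type its ratio was 1.74 (1.12 to 2.75). Col1a2 and Col5a2 behaved alike: their ratios were 0.448 and 0.537 over all members, with 58.2% and 60.5% of the noise-only UMIs in 1 cell, and 1.54 (1.18 to 2.02) and 2.74 (1.37 to 5.96) without a second type. Of 24 elastic fibre and fibrillar matrix genes 2 were higher and 6 lower, with a median log2 ratio of -0.05 over all members and 0.48 without a second type. Mgp, matrix Gla protein, which keeps arterial walls free of mineral, had a ratio of 1.01 (0.944 to 1.08).

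Of 19 basement membrane genes 2 were higher and 1 lower, with a median of 0.03 (0.18 without a second type). Col15a1, a collagen of vascular basement membranes, was higher at 37.2 CPM in drug members and 17.2 CPM in noise-only members, with 33.3% of the noise-only UMIs in 1 cell. It had 24 drug and 3 noise-only UMIs without a second type, a ratio of 6.52 (1.98 to 33.8). Lama4, a laminin chain, was lower at 34.3 CPM in drug members and 53.6 CPM in noise-only members, a ratio of 0.639 (0.423 to 0.960), and 0.786 (0.446 to 1.38) without a second type. Sparcl1, a secreted matrix glycoprotein, stood at 2500.3 and 2962 CPM, a ratio of 0.844 (0.804 to 0.887). Among 24 genes of the synthetic state, the less contractile form that smooth muscle takes on in injured arteries, 3 were higher and none lower, with a median of 0.08 (0.23 without a second type). Of these, Timp1 had 81 UMIs in drug members and 7 in noise-only members, but 8 and 1 without a second type. Ly6c1, an endothelial panel gene, had 84 and 22 UMIs, and 4 and 1 without a second type. Tmsb4x, thymosin beta, which binds actin monomers, stood at 4882 CPM in drug members and 4121 CPM in noise-only members, a ratio of 1.18 (1.14 to 1.23), and 1.49 (1.405 to 1.58) without a second type.

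Of 4 further genes named as higher over all members, Mobp kept its ratio without a second type, and Pam, Atp1b1 and Ywhag were closer to 1 there. Mobp, a myelin-associated gene, stood at 135.5 CPM in drug members and 75.7 CPM in noise-only members, a ratio of 1.79 (1.37 to 2.36), and 1.79 (1.27 to 2.56) without a second type. In all other barcodes Mobp stood at 165.8 CPM in the drug library and 137.5 CPM in the noise-only library. A Mobp UMI was found in 20.6% of drug and 14.4% of noise-only members, and in 19.8% and 13.96% of all other barcodes. The Mobp ratio was 1.997 in the endothelial set and 1.04 in the pericyte set. No panel held Mobp, and whether its difference belongs to the smooth muscle cells was not tested. Pam, an enzyme that amidates peptides, had a ratio of 1.65 (1.22 to 2.25), and 1.34 (0.885 to 2.05) without a second type. Atp1b1, a subunit of the sodium pump, had a ratio of 1.31 (1.18 to 1.47), and 1.02 (0.841 to 1.24) without a second type. Ywhag, an adaptor of signalling proteins, had a ratio of 1.66 (1.29 to 2.14), and 1.51 (0.928 to 2.51) without a second type.

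Immediate early genes, which cells transcribe within minutes of a stimulus, were mostly lower in drug members by less than 1.5-fold. Of 30 measured, 18 had a counting interval below 1, and the median log2 ratio was -0.30, against -0.22 in the pericyte set and -0.08 in all other barcodes. It was -0.21 without a second type and -0.13 without members that Scrublet marked. Past the 1.5-fold limits 2 were lower, Egr2 and Ier5, and 1 was higher, Ccn2, which also belongs to this list. Junb stood at 2681 CPM in drug members and 3477 CPM in noise-only members, a ratio of 0.771 (0.736 to 0.808), and 0.817 (0.769 to 0.868) without a second type. Fos stood at 5706 and 6932 CPM, a ratio of 0.823 (0.797 to 0.850), Jun at 2337 and 2779 CPM, a ratio of 0.841 (0.7995 to 0.885), and Egr1 at 2305 and 2818 CPM, a ratio of 0.818 (0.778 to 0.861). Gadd45b, a stress gene of the same list, stood at 486.2 and 723.1 CPM, a ratio of 0.672 (0.605 to 0.748), and 0.710 (0.623 to 0.810) without a second type. In pericytes its ratio was 0.658 (0.580 to 0.747).

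Other genes named as lower had smaller counts. Ddit4l, an inhibitor of mTOR signalling, stood at 25.3 CPM in drug members (34 UMIs) and 59.4 CPM in noise-only members (62 UMIs), a ratio of 0.426 (0.272 to 0.658). Without a second type it was 0.466 (0.270 to 0.787), and in pericytes 0.830 (0.662 to 1.04). Rcsd1, a protein that binds the actin capping protein, stood at 34.3 and 71.8 CPM, a ratio of 0.477 (0.323 to 0.697), and 0.544 (0.331 to 0.882) without a second type. Nrgn, neurogranin, which binds calmodulin, stood at 37.2 and 74.7 CPM, a ratio of 0.498 (0.342 to 0.720), and 0.573 (0.355 to 0.913) without a second type. Ccn3 had a ratio of 0.525 (0.365 to 0.750), and 0.693 (0.426 to 1.12) without a second type. Socs3, which dampens cytokine signalling, had a ratio of 0.706 (0.628 to 0.794), and Irf1, a factor of the interferon response, 0.692 (0.590 to 0.811). Gsn, gelsolin, which severs actin filaments, had a ratio of 0.702 (0.618 to 0.798) over all members and 0.963 (0.804 to 1.16) without a second type.

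UMIs of cytokine genes lay in few members. Of 17 cytokine and NF-kB target genes 5 were higher and none lower, with a median of 0.27 (0.15 without a second type). Lcn2, lipocalin, had 172 UMIs in drug members and 11 in noise-only members, but 36.0% and 72.7% of them lay in 1 cell, and 2 and 0 were left without a second type. Ccl19, a chemokine for lymphocytes, had 73 UMIs in 26 drug members and 11 UMIs in 7 noise-only members, a ratio of 5.16 (2.72 to 10.8), and 3.98 (1.83 to 9.85) without a second type. In members with at least 5 Acta2 UMIs and 3 partner genes its log2 ratio was 0.011, against 2.31 over all members. Ccl11, a chemokine for eosinophils, had 48 UMIs in 13 drug members and 10 UMIs in 8 noise-only members, a ratio of 3.73 (1.86 to 8.27), and 6.69 (2.64 to 21.7) without a second type, and under those stricter limits its log2 ratio was -2.35. Nfkbia, the inhibitor of NF-kB, was at 285.9 CPM in drug members and 389.8 CPM in noise-only members, a ratio of 0.733 (0.636 to 0.845), and 0.898 (0.729 to 1.11) without a second type.

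Interferon response genes were split. Of 27 genes none was higher and 5 were lower, with a median of -0.15 over all members and 0.09 without a second type. Isg15, a ubiquitin-like protein, stood at 96.8 CPM in drug members and 177.2 CPM in noise-only members, a ratio of 0.546 (0.433 to 0.687), and 0.467 (0.319 to 0.677) without a second type. Ifit3, an antiviral protein, had 27 UMIs in drug members and 45 in noise-only members. In the other direction, Ifi27l2a stood at 540.6 and 383.1 CPM, a ratio of 1.41 (1.25 to 1.60), and 2.32 (1.73 to 3.14) without a second type.

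Of 34 growth factor and receptor genes 3 were higher and 2 lower, with a median of 0.03. Igfbp2, a carrier of insulin-like growth factors, stood at 148.9 CPM in drug members and 65.1 CPM in noise-only members, a ratio of 2.29 (1.73 to 3.06), and 4.19 (2.39 to 7.84) without a second type. Outside the Actg2 and Npnt group its ratio was 1.96 (1.36 to 2.85). Without a second type it was 2.72 (1.12 to 7.53) there, on 22 drug and 7 noise-only UMIs. Igfbp7, the most abundant gene of this list, stood at 3512 and 3527 CPM, a ratio of 0.996 (0.954 to 1.04). Angpt1, a vessel-stabilising ligand of mural cells, had 51 UMIs in drug members and 23 in noise-only members.

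Stress and metabolic lists lay near a ratio of 1. Of 25 heat shock genes 1 was higher, Hspb7, a small heat shock protein of muscle, at 41.7 CPM in drug members and 24.9 CPM in noise-only members. Outside the Actg2 and Npnt group its ratio was 1.31 (0.708 to 2.48), and 0.980 (0.460 to 2.11) without a second type. Of 28 oxidative stress genes 2 were higher and 1 lower, with a median of 0.10. Gpx3, a secreted glutathione peroxidase, was the lower one at 41.7 CPM in drug members and 97.7 CPM in noise-only members, a ratio of 0.427 (0.302 to 0.597), and 0.631 (0.355 to 1.11) without a second type. Of 23 glycolysis and hypoxia genes 3 were higher, Hk1, Pfkp and Pgk1, with ratios of 1.55, 1.55 and 1.53 over all members. Their ratios without a second type were 1.72 (0.959 to 3.205), 1.49 (0.973 to 2.32) and 1.48 (0.999 to 2.21), so that Pfkp and Pgk1 lay below 1.5. The list's median was 0.20 over all members and -0.08 without a second type. None of 13 mitochondrially encoded genes was higher or lower, and 12 had intervals above 1, with a median of 0.25 against 0.39 in all other barcodes. Mitochondrial UMIs had a median share of 6.11% in drug members and 4.85% in noise-only members. None of 41 nuclear genes of the respiratory chain was higher or lower, with a median of 0.09.

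**Figure D5:**
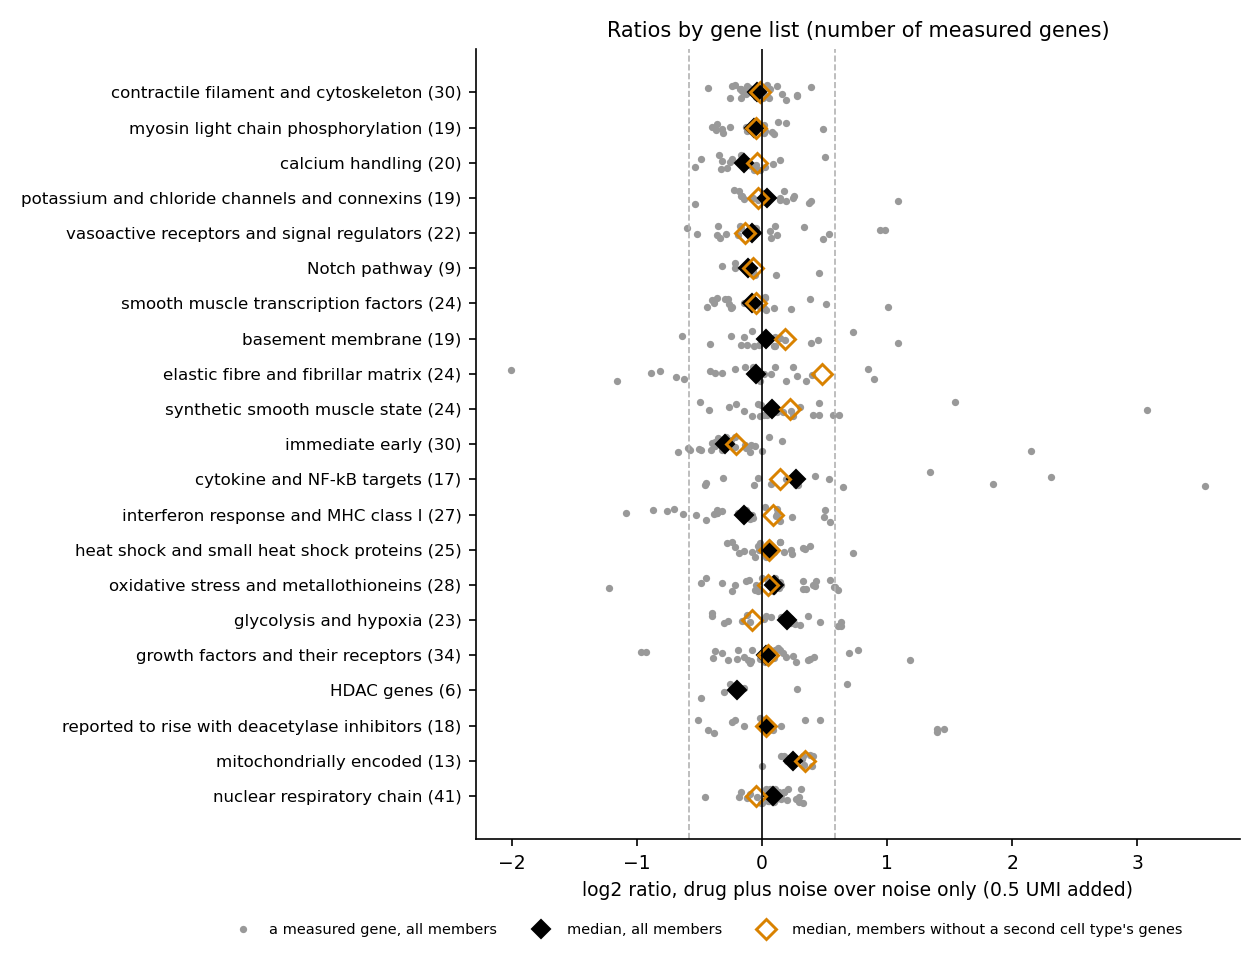
Log2 ratio of drug to noise-only CPM of each measured gene, by list, with the median over all members and the median over members without a second cell type's genes, where at least 5 genes were measured. The immediate early median lies at -0.30, and the elastic fibre and fibrillar matrix median at -0.05 over all members and 0.48 without a second type.

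Valproic acid, for which VPA is a common short form, inhibits histone deacetylases, so these enzymes and genes reported to answer to such inhibitors were looked at. Of 6 measured deacetylase genes 1 was higher, Hdac11, at 40.2 CPM in drug members and 24.9 CPM in noise-only members, a ratio of 1.61 (0.994 to 2.69). Hdac1 had a ratio of 0.839 (0.587 to 1.20) and Hdac2 of 0.809 (0.536 to 1.22). Of 18 measured genes known from other work to answer to such inhibitors, 3 were higher and none lower, with a median of 0.03. Stmn2 and Tubb3, genes of neurons, had 93 and 86 UMIs in drug members and 26 and 25 in noise-only members, but 4 and 4 against 1 and 0 without a second type. Tubb3 is itself a neuron panel gene, so its fall there is partly set by the choice of members. Clu, clusterin, stood at 748.3 CPM in drug members and 283.5 CPM in noise-only members, a ratio of 2.64 (2.32 to 3.01), and a single cell held 28.5% of the UMIs in drug members. Without a second type Clu fell to 158.3 CPM in drug members (102 UMIs) and 41.9 CPM in noise-only members (22 UMIs). The ratio there was 3.78 (2.37 to 6.30).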

How the data were processed

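Droplet libraries (10x Genomics 3′ v3.1) were made from 2 pools of 5 ears. The authors deposited matrices of whole UMI counts, not normalized, which Cell Ranger 5.0.1 wrote per the file headers. The submitters' processing notes name Seurat 3.2.2, STAR and Cell Ranger 5.0, with GRCm38 and mm10 as builds. How the 21773 drug and 18545 noise-only barcodes were picked is not stated; the labels speak of some 20000 cells.

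Barcodes with at least 500 UMIs, 300 genes and at most 20% mitochondrial UMIs were kept. The pericyte set had fewer than 2 Acta2 UMIs, no Cdh5 or Pecam1, at least 2 of Kcnj8, Abcc9, Higd1b, Rgs5, Vtn and Ndufa4l2, and at least 1 of the first 3 of these. The endothelial set had no Acta2 and at least 2 of Cdh5, Pecam1, Cldn5 and Flt1, and the macrophage set at least 3 of C1qa, C1qb, C1qc, Csf1r and Cd68. Doublets were not removed in the main values; Scrublet (scanpy 1.11.5, expected rate 0.08) marked 12.9% of drug and 4.62% of noise-only barcodes. A count of 3 in the summed members is 2.23 CPM in the drug library and 2.87 CPM in the noise-only library. Ratios of CPM have exact conditional binomial 95% intervals and shares exact binomial ones; both cover counting error only. Log2 ratios have 0.5 UMI added to each sum. With 1 library per group, no p-value or standard error was derived from cells, and the steps were tested on simulated data.

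Members and gene lists were chosen with earlier results of these data known. Named genes were the 10 per direction whose nearer interval bound was most distant from 1, given 50 or more UMIs in the larger sum, a UMI in at least 5% of members of the library where higher, a share of members with a UMI above that of other barcodes, and at most 20% of UMIs in 1 cell; and, in each of 21 lists, up to 3 members per direction and the 4 with most UMIs. Genes outside this rule, as in the comparison with other cell sets and in the Actg2 and Npnt group, were chosen after their values were seen. Some genes that the rule selects are not reported here. Promoters are from RefSeq (GRCm38.p6). Python 3.11.15, numpy 2.4.6, scipy 1.17.1, matplotlib 3.10.9 and, for TMM factors, edgeR 4.0.16 in R 4.3.3 were used.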

Additional observations from a re-analysis of the deposited data

How the results depend on the processing

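No paired analysis was possible because each group is 1 library, and no library could be left out. Of 18 alternative settings for 128 named genes, 278 of 2304 values moved beyond the main counting interval and 14 values past the 1.5-fold limits over all members lay on the other side of 1. Counting values of any size, 114 values of 49 genes did so. The share of members had a ratio of 0.895 among mural and endothelial sets. The count of genes at least 1.5-fold higher was 179 without Scrublet-marked barcodes, 134 with members thinned to 1000 UMIs, 1045 with a minimum of 20 UMIs, 128 with a minimum of 100, and 139 without second-type members. The count of genes at least 1.5-fold lower was 105 when thinned, 719 with the minimum of 20 and 77 with that of 100. List medians moved for elastic fibre and fibrillar matrix (0.48 without second-type members), immediate early genes (-0.13 without Scrublet-marked barcodes) and cytokine genes (-0.27 in members with at least 5 Acta2 UMIs and 3 partner genes). The cause was not tested.

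Among genes past 1.5-fold over all members, log2 ratios changed sign without second-type members for Ramp2 (-0.82), Col1a1 (0.78), Col1a2 (0.62), Col5a2 (1.41) and Igf1 (1.10). Nearer to 1, S100a1 had a ratio of 0.890 over all members and 2.01 there. Signs also changed without the top member of each gene for Col1a2 (0.053) and Col5a2 (0.36), and without Scrublet-marked barcodes for Rgs2 (-0.24) and Mt3 (-0.055). Col5a2 also did so as the mean of each member's CPM (0.22), thinned (0.16) and without the Actg2 and Npnt group (0.18). Ccl11 did so under those stricter limits (-2.35), and Angpt1 without Kcnj8 or Higd1b UMIs (-0.15). The settings without second-type members, without the Actg2 and Npnt group, without members of the macrophage set and with reweighted Acta2 tiers were chosen after seeing the data. Small sums limit most single genes: 6160 of 32285 genes in the files reached 50 UMIs.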
